A study of Rattus norvegicus with 12 samples.

Results

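The genes of 10 acute-phase proteins that bind a ligand or take part in defence against microbes were followed in rats after a thermal injury, as ratios of burned to sham-treated animals. They were Orm1, Lcn2, Lbp, Hp, Hpx, Cp, Crp, Apcs, Hamp and Cd14. The genes were found through the array's own annotation, as the probe sets that name exactly 1 gene, that gene being a member. All 10 were present, with 12 of the 15866 probe sets and among 10411 measured genes, and Cp alone had more than 1 probe set, with 3. The injured group is labelled thermal injury and the control group sham, on days 1, 2, 4 and 7, with 3 samples per day. Each sample is 1 log2 ratio of injury to sham per probe set from the Affymetrix RAE230A array, and the 9 samples of days 2, 4 and 7 were used. Below, an array means the ratios of 1 sample. Neither the tissue nor the strain, age, burn size and number of animals is named by the labels. Whether the 3 samples of 1 day are separate animals is also unnamed, so p-values measure only the spread between these samples, which may be technical. Which channel is on top of the ratio is unstated. Injury on top is likely, since the labels put sham in channel 1 and injury in channel 2, and every direction below rests on that reading.

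The acute phase is the change of plasma proteins that follows injury and infection. Cytokines, with interleukin-6 foremost, act on hepatocytes through STAT3, C/EBP factors and NF-κB, and the liver then secretes more of the positive acute-phase proteins. Orm1, Lcn2 and Lbp carry lipids, siderophores and bacterial lipopolysaccharide (LPS), Hp, Hpx and Cp bind haemoglobin, haem and copper, Crp and Apcs are the short pentraxins, Hamp encodes the iron hormone hepcidin, and Cd14 is the co-receptor to which Lbp hands LPS. In the rat, Orm1 is among the strongly induced members, whereas Crp circulates at a high level without injury.

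The tissue, unnamed in the labels, was checked through marker genes. Between 94.0% and 94.7% of the deposited ratios of an array could be written as a quotient of whole numbers of at most 20000. For ratios shifted at random this share was 12.4% to 13.5%, so a single quotient may be a chance match. Brightness here is log2 of the quotient's smaller number, and a ratio with no such quotient was given the limit of 20000. The highest value is thus a ceiling set by that rule. Quotients were in lowest terms, so a factor shared by both signals is lost and brightness can be too low. All of the 19 measured hepatocyte markers were above the median brightness of all genes (10.58), and 16 were in the top 10%, their median being the ceiling itself. Above the median were also 9 of 10 macrophage markers and 4 of 5 red cell markers, but 2 of 16 exocrine pancreas markers, 2 of 11 skeletal muscle markers, 1 of 8 neutrophil markers and 1 of 5 adipocyte markers. Different probes need not give equal signal for equal RNA, so these counts describe the arrays and do not settle the tissue. Among the 10 genes, Lcn2 was near the median (10.57) with a quotient found for 9 of 9 ratios. For 8 of the other genes, Cp by 2 of its probe sets, no quotient was found for most of the 9 ratios, and whether their signals were above the limit was not tested. The identifiers of day 1 did not follow those of the other days, because recovered signals had a rank correlation of 0.653 to 0.711 between arrays of days 2, 4 and 7 but of -0.00992 to 0.0205 between a day 1 array and any of these. Day 1 was therefore left out.

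Promoters from the RefSeq table of the GRCr8 assembly, 250 bases before to 50 bases after the gene start, were found for 8 of the 10 genes, and Lbp and Hp are named only. The promoters of Orm1 and Lcn2 are shown because, with Lbp, these genes had the smallest p for the mean of the 3 days. Capitals mark the matches to C/EBP (TTNNGNAA) and to the NF-κB motif, searched on both strands together with STAT (TTCNNNGAA).
Orm1 (GRCr8, chr5:81788259-81788558, + strand): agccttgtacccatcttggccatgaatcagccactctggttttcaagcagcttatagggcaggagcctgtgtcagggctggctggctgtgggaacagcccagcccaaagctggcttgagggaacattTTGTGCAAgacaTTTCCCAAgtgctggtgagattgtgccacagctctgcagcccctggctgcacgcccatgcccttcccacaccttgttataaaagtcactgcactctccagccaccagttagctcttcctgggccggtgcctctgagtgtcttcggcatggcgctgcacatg
Lcn2 (GRCr8, chr3:36081731-36082030, - strand): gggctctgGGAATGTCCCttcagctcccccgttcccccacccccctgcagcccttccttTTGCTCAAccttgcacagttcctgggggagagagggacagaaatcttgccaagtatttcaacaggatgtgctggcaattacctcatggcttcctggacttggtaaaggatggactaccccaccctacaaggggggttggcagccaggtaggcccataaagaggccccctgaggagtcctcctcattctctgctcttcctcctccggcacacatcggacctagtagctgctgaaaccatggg
The Orm1 window held 2 matches to C/EBP, TTGTGCAA with its first base at -123 and TTTCCCAA at -111 relative to the gene start. The Lcn2 window held 1 match to C/EBP, TTGCTCAA at -191, and 1 to the NF-κB motif, GGAATGTCCC at -242. Hamp held the 1 STAT match of the 8 windows, TTCTTGGAA at -117. The matches in these windows do not overlap each other, and bases are given as they stand on the gene's strand. A C/EBP match was present in 6 of the 8 windows and in 41.3% of all 33469 promoters of the table, a STAT match in 1 of 8 and in 8.87%, and an NF-κB match in 1 of 8 and in 7.51%.

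Over days 2, 4 and 7 together, Orm1, Lcn2 and Lbp had the highest ratios of the 10 genes. They had mean log2 ratios of 0.78, 1.19 and 1.16, which correspond to 1.72-fold, 2.28-fold and 2.23-fold more RNA signal after the burn. Orm1 rose in the limma fit of the 9 samples (adjusted p = 0.0263 over 10411 genes), with the smallest p of all genes tested. Of the 10 genes, 1 was called higher and 0 lower, beside 0.0192% of all genes called higher, 0.0192% called lower and 0.0384% called in all. Lcn2 and Lbp, each at an adjusted p of 0.133, did not pass. The median over the 10 genes was 0.09, with 9 of 10 above 0, against a median of 0.0027 and 50.5% above 0 over all genes. At an unadjusted p under 0.05 there were 4 of the 10 genes (Orm1, Lcn2, Lbp and Hpx), beside 8.98% of all genes. In bulk RNA, a change in the share of a cell type and a change of RNA per cell cannot be told apart.

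**Figure D1:**
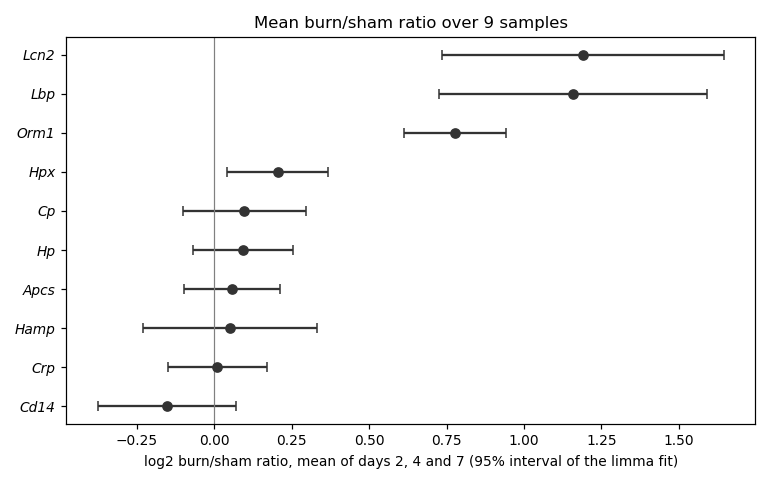
Mean log2 burn/sham ratio over days 2, 4 and 7 (x axis) of each of the 10 genes (y axis), with the 95% interval of the limma fit on 9 samples. The intervals of Lcn2, Lbp, Orm1 and Hpx lie above 0, and those of the other 6 genes include 0.

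Orm1 encodes α1-acid glycoprotein, a lipocalin that carries lipids and basic drugs in plasma. Its log2 ratios were 1.06, 1.17 and 0.77 on day 2, 0.45, 0.33 and 0.39 on day 4, and 1.06, 0.82 and 0.96 on day 7. All 9 samples lay above 0, and the 3 of day 4 were lower than each sample of days 2 and 7. The mean was 1.00 ± 0.20 on day 2, 0.39 ± 0.06 on day 4 and 0.95 ± 0.12 on day 7 (SD, n = 3 each). Over the 3 days the ratio was 1.72-fold, with a 95% interval of 1.53 to 1.92. The spread within days was small, with 4.18% of all genes at or below it. That share was lower still for Hp (2.95%), Hpx (3.82%), Crp (2.55%) and Apcs (1.40%). Fitted by probe set, that of Orm1 was 1 of 2 called among 15866 for the mean of the 3 days (0.0126%), with a limma adjusted p just under the threshold of 0.05, and on day 7 it did not pass where 0.0063% of probe sets did. The call for the mean held without sample 3 of day 2 (limma adjusted p = 0.0439). It ended when any other single sample was left out, at an adjusted p of up to 0.160 and a log2 ratio between 0.75 and 0.82.

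Lbp, the LPS-binding protein that extracts LPS from bacterial membranes and passes it to Cd14, also had all samples above 0. Its log2 ratios were 0.55, 1.78 and 1.45 on day 2, 1.13, 0.87 and 0.40 on day 4, and 1.67, 0.52 and 2.06 on day 7. The days overlap, and the lowest sample, at 0.40, was sample 3 of day 4. The 95% interval of its mean fold was 1.65 to 3.02. Being above 0 in 9 of 9 samples held for 2 of the 10 genes, Orm1 and Lbp, and for 0.480% of all genes. The 1 probe set of Lbp is annotated through an expressed sequence tag.

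Lcn2 encodes lipocalin 2, which binds bacterial siderophores and so withholds iron. It had the highest single ratio of the 10 genes and the widest range. Its log2 ratios were 2.14, 2.19 and 1.22 on day 2, 1.45, -0.10 and -0.0045 on day 4, and 0.71, 1.41 and 1.71 on day 7. All samples of days 2 and 7 lay above 0, while samples 2 and 3 of day 4 showed about equal signal in burn and sham. The mean was 1.85 ± 0.54 on day 2 (95% interval 1.06 to 2.64), 0.45 ± 0.87 on day 4 and 1.28 ± 0.51 on day 7 (SD, n = 3 each).

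Lcn2 is made by neutrophils as well as by hepatocytes. Of the 8 measured neutrophil markers, 7 had a mean of the 3 days above 0 (median 0.12), and 0 passed in the limma fit over all genes, with 2 at an unadjusted p under 0.05. These 2, the calprotectin subunits S100a9 and S100a8, had means of 1.27 and 1.22 (adjusted p = 0.225 and 0.475 in the limma fit of 9 samples). In samples 2 and 3 of day 4, where Lcn2 was near 0, S100a9 was at 2.14 and 0.71 and S100a8 at 2.37 and 0.48. In sample 2 of day 2, where Lcn2 was highest, S100a9 was at -0.39 and S100a8 at 0.42. In sample 3 of day 7, Lcn2 at 1.71 stood beside S100a9 at 1.57 and S100a8 at 3.10, and in sample 1 of day 2, Lcn2 at 2.14 stood beside S100a9 at 1.85 and S100a8 at -0.39. In sample 3 of day 2, Lcn2 was at 1.22, S100a9 at 0.92 and S100a8 at 2.34. In sample 1 of day 4, Lcn2 was at 1.45, S100a9 at 1.02 and S100a8 at -1.70. Samples 1 and 2 of day 7 had Lcn2 at 0.71 and 1.41, S100a9 at 2.62 and 0.98, and S100a8 at 3.15 and 1.19. These 2 markers had the smallest p of the list, and the means of the others lay between -0.33 (Itgam) and 0.18 (Cxcr2). S100a8 was dim, with a brightness of 7.38 against a median of 10.58 over all genes, and S100a9 was also below that median, at 9.75. The SD on days 2, 4 and 7 was 1.40, 2.04 and 1.12 for S100a8 and 1.13, 0.75 and 0.83 for S100a9. Single values of both are therefore imprecise. The marker list's median per sample lay between -0.33 and 0.31 on day 2, between 0.01 and 0.29 on day 4, and between -0.05 and 0.45 on day 7. The part of neutrophil RNA in the Lcn2 ratio was not tested.

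**Figure D2:**
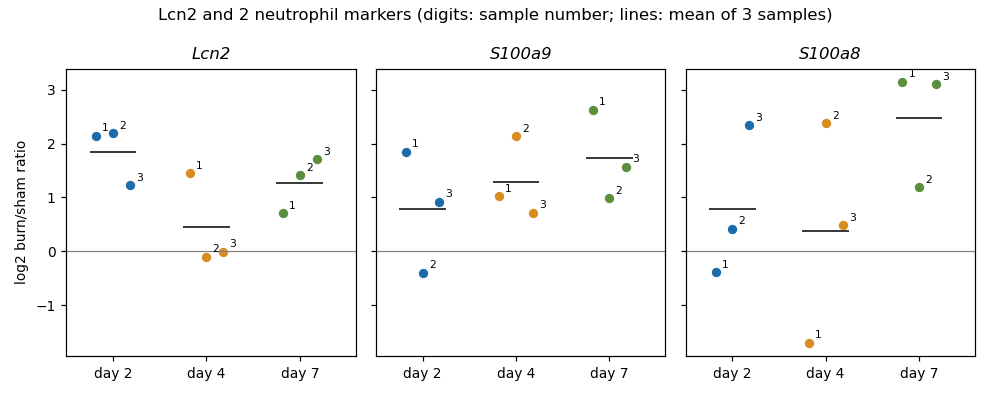
Log2 burn/sham ratio (y axis) of Lcn2 and of the neutrophil markers S100a9 and S100a8 in each of the 9 samples by day (x axis), with the sample number beside each point and a line at the mean of 3 samples. Samples 2 and 3 of day 4 are near 0 for Lcn2 and above 0 for both markers.

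The scavengers of haemoglobin and haem had ratios close to 1. Hp encodes haptoglobin, which captures free haemoglobin. Its log2 ratios were 0.15, 0.37 and 0.26 on day 2, -0.24, -0.03 and 0.06 on day 4, and -0.04, 0.11 and 0.20 on day 7. The day 2 samples all lay above 0 and above each day 4 sample. Over the 3 days Hp was at 1.07-fold (95% interval 0.954 to 1.19), so the interval leaves out a change of the size measured for Orm1. Hpx, hemopexin, binds free haem and delivers it to the liver. It was at 0.17, 0.47 and 0.47 on day 2, -0.04, 0.07 and 0.22 on day 4, and 0.04, 0.20 and 0.24 on day 7. Above 0 in 8 of 9 samples, Hpx had a mean of 1.15-fold (95% interval 1.03 to 1.29) that did not pass over all genes (limma adjusted p = 0.441).

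Cp, the copper-carrying ferroxidase ceruloplasmin, gave different answers by probe set. Averaged over its 3 probe sets it was at 1.07-fold over the 3 days (95% interval 0.933 to 1.23). Probe set 1368418_a_at was at 0.46, 1.00 and 0.54 on day 2, -0.22, -0.17 and 0.11 on day 4, and 0.43, 0.45 and 0.85 on day 7. Its day 2 and day 7 samples were all above its day 4 samples. Probe set 1368420_at was at -0.05, 0.50 and 0.64 on day 2, -0.28, -0.11 and 0.17 on day 4, and 0.17, 0.37 and 0.50 on day 7. Its day means of 0.36, -0.07 and 0.34 stood in the same order, with overlap between days. Probe set 1368419_at, the dimmer one, was at -0.63, -0.55 and -0.54 on day 2, -0.17, -0.11 and 0.41 on day 4, and -0.75, 0.30 and -0.68 on day 7. On day 2 it lay below 0 in 3 of 3 samples, where 1368418_a_at lay above 0 in 3 of 3. None of the 3 passed over all probe sets for the mean of the 3 days (limma adjusted p between 0.339 and 0.560). The log2 ratio over the 3 days was 0.38 for 1368418_a_at, 0.21 for 1368420_at and -0.30 for 1368419_at, against 0.10 for the average, and the first pair tied at the ceiling of brightness.

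**Figure D3:**
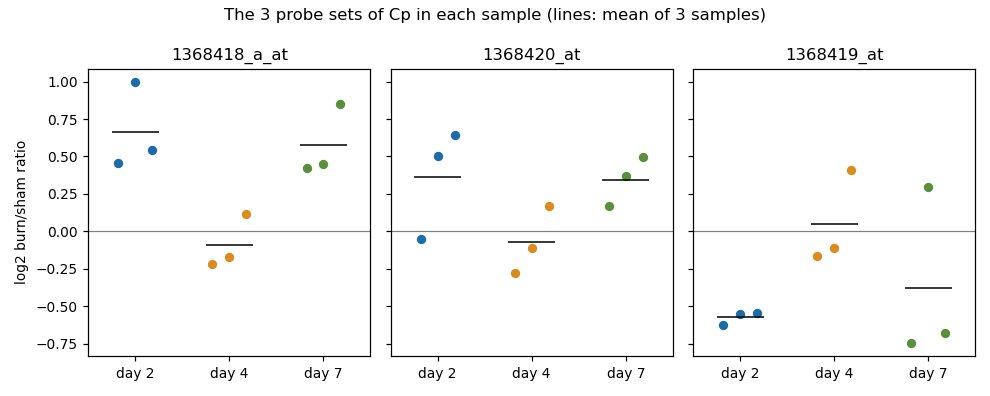
Log2 burn/sham ratio (y axis) of the 3 probe sets of Cp in each of the 9 samples by day (x axis), with a line at the mean of 3 samples. On day 2, 1368418_a_at is above 0 and 1368419_at below 0 in every sample.

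The pentraxins Crp and Apcs, ring-shaped proteins that bind microbial and damaged cell surfaces, stood in different orders across the days. Crp, C-reactive protein, was at 0.26, 0.39 and 0.17 on day 2, -0.20, -0.18 and -0.02 on day 4, and -0.18, -0.22 and 0.08 on day 7. Its day 2 samples were all above 0 and above every later sample. Apcs, serum amyloid P component, was at 0.02, -0.0077 and 0.24 on day 2, 0.30, 0.46 and 0.24 on day 4, and -0.24, -0.17 and -0.32 on day 7. Its day 4 samples were all above 0 and its day 7 samples all below. Over the 3 days Crp was at 1.01-fold (95% interval 0.902 to 1.12) and Apcs at 1.04-fold (0.936 to 1.16).

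Hamp and Cd14 had no mean ratio that passed. Hepcidin, the product of Hamp, lowers plasma iron by blocking the exporter ferroportin, and interleukin-6 induces it. Hamp was at 0.16, 0.51 and 0.62 on day 2, -0.02, 0.01 and -0.70 on day 4, and 0.06, 0.35 and -0.54 on day 7. Its day 2 samples were above 0 and above each day 4 sample, and sample 3 was the lowest of both later days. Cd14 was at 0.02, 0.06 and -0.17 on day 2, -0.04, -0.41 and 0.40 on day 4, and -0.19, -0.58 and -0.47 on day 7. It was below 0 in 3 of 3 samples of day 7 (0.751-fold, 95% interval 0.575 to 0.982, limma adjusted p = 0.427). Cd14 is also made by macrophages. The 10 measured macrophage markers had a median of 0.02 on day 2, 0.24 on day 4 and -0.02 on day 7. Above 0 were 6, 10 and 5 of them, beside 50.8%, 51.0% and 48.4% of all genes. Their median per sample lay between -0.35 and 0.44 on day 2, between 0.09 and 0.53 on day 4, and between -0.23 and 0.13 on day 7. On each of these days 0 passed over all genes in limma and 0 had an unadjusted p under 0.05. Over all genes 0% passed on each day, and 7.77%, 8.81% and 10.9% had an unadjusted p under 0.05. The part of macrophage RNA in the Cd14 ratio was not tested.

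**Figure D4:**
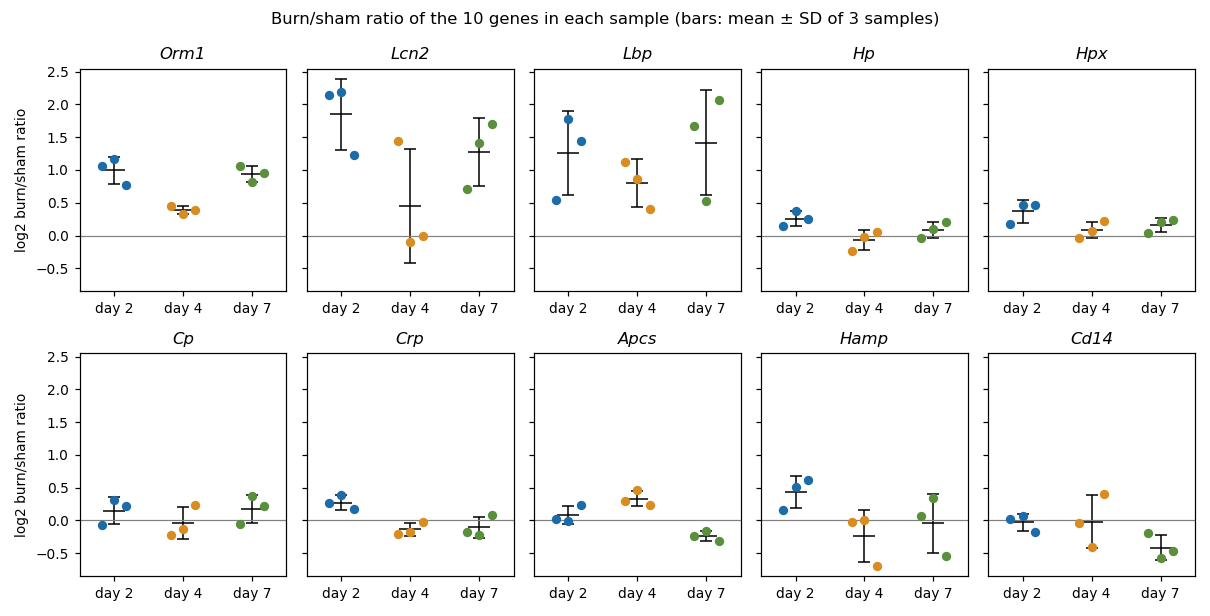
Log2 burn/sham ratio (y axis) of the 10 genes in each of the 9 samples by day (x axis), with bars at the mean ± SD of 3 samples. Orm1 and Lbp lie above 0 in 9 of 9 samples, and Lcn2 in 7 of 9.

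Taken by day, no gene passed over all 10411 genes in the limma fit of 9 samples. On day 2, 9 of the 10 genes had a mean above 0, with a median of 0.32, against 50.8% of all genes above 0 and a median of 0.0047. There 0 of the 10 genes and 0% of all genes were called, and 4 of the 10 had an unadjusted p under 0.05, beside 7.77% of all genes. All 3 samples lay above 0 for 7 of the 10 genes, Orm1, Lcn2, Lbp, Hp, Hpx, Crp and Hamp, beside 13.8% of all genes. The 19 hepatocyte markers also leaned above 0 that day, with 18 of 19 means above 0 and a median of 0.14, but had 5 of 19 above 0 on day 4 (median -0.06) and 5 of 19 on day 7 (median -0.09). On day 4, 5 of the 10 genes were above 0, with a median of 0.03, against 51.0% above 0 and a median of 0.0063 over all genes. Called were 0 of the 10 and 0% of all genes, with 3 of the 10 at an unadjusted p under 0.05 (8.81% of all genes). On day 7, 6 of the 10 were above 0, with a median of 0.13, against 48.4% above 0 and a median of -0.013 over all genes. Called were again 0 of the 10 and 0% of all genes, with 4 of the 10 at an unadjusted p under 0.05 (10.9% of all genes). These 4 were Orm1, Lcn2 and Lbp, which were higher, and Cd14, which was lower.

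Differences between days were tested directly, and 0 of the 10 genes passed (limma's moderated F over 10411 genes, 0% of all genes called). At an unadjusted p under 0.05 there were 2, Orm1 and Apcs, beside 10% of all genes. The Orm1 ratio on day 4 was lower than on day 2 by a log2 difference of -0.61 (95% interval -1.01 to -0.20, adjusted p = 0.557), and on day 7 higher than on day 4 by 0.55 (0.15 to 0.96, adjusted p = 0.313), in the limma fit of 9 samples. For Lcn2, day 4 minus day 2 was -1.40 (95% interval -2.52 to -0.29, adjusted p = 0.635 in limma). Days 4 and 2 did not overlap for 5 of the 10 genes, beside 14.4% of all genes. Day 4 was the lower of these days for 4 of them, Orm1, Hp, Crp and Hamp, beside 7.03%. Day 4 minus day 2 was below 0 for 8 of the 10 genes (median -0.37, against 0.01 over all genes), the exceptions being Apcs and Cd14. The median of the hepatocyte markers was also lower on day 4 (-0.06) than on day 2 (0.14), and its part in these differences was not tested. Days 7 and 2 did not overlap for Crp, Apcs and Cd14, beside 12.6% of all genes in either direction, and each was lower on day 7, beside 7.15%. Days 7 and 4 did not overlap for Orm1 and Apcs, beside 19.7% of all genes in either direction, and Apcs was the one lower on day 7, beside 11.1%. At an unadjusted p under 0.05 in limma there were 3 of the 10 genes for day 4 minus day 2 (7.59% of all genes), 0 for day 7 minus day 2 (7.45%) and 2 for day 7 minus day 4 (11.7%).

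On day 4 the exocrine pancreas markers were high in some samples. All 16 had a day 4 mean above 0, beside 51.0% of all genes, and the median of the markers was 0.19, 2.76 and 1.53 in samples 1 to 3. The Orm1 ratio was 0.45, 0.33 and 0.39 in the same samples, and Lcn2 was at 1.45, -0.10 and -0.0045. Without samples 2 and 3 of day 4, the mean over the 3 days was 0.80 for Orm1 (limma adjusted p = 0.247), 1.52 for Lcn2 and 1.27 for Lbp, and 0 of the 10 genes passed. Day 4 then rests on 1 sample, which is assumed to vary like those of days 2 and 7. With the mean of days 2 and 7 alone, Orm1 was at 0.97 (adjusted p = 0.0347). Whether pancreatic RNA plays a part in the day 4 ratios was not tested.

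**Figure D5:**
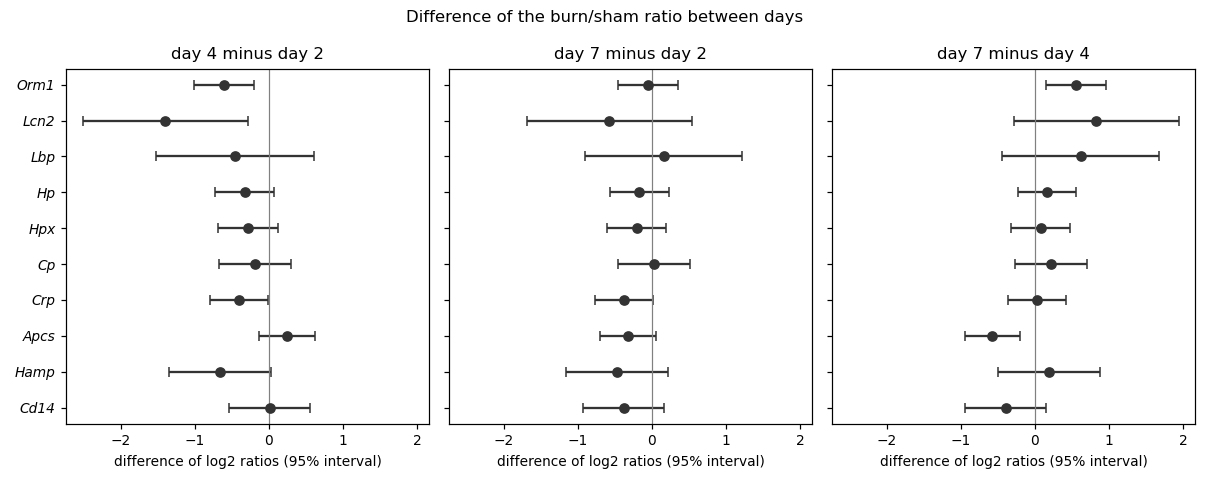
Difference of the log2 burn/sham ratio between days (x axis, 95% interval of the limma fit) for the 10 genes (y axis), with day 4 minus day 2, day 7 minus day 2 and day 7 minus day 4 in separate panels. For day 4 minus day 2 the intervals of Orm1, Lcn2 and Crp lie below 0, and for day 7 minus day 4 that of Apcs lies below 0 and that of Orm1 above 0.

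Genes that control the acute phase, activators and inhibitors together, were measured on the same arrays. Of 22 measured genes of interleukin-6, interleukin-1 and STAT3 control, 0 passed in limma for the mean of the 3 days (0.0384% of all genes). An unadjusted p under 0.05 was found for 7 of them, beside 8.98% of all genes. Of these 7, Stat3, Socs3, Hnf4a, Il1r1, Il1rn and Junb were higher, and Lifr, at -0.49, was lower. The median of the 22 genes was 0.17, with 15 of 22 above 0, against a median of 0.0027 and 50.5% above 0 over all genes. Socs3, the feedback inhibitor that STAT3 induces, had day means of 0.77, 0.07 and 0.95 on days 2, 4 and 7 and lay above 0 in 8 of 9 samples. The interleukin-1 receptor Il1r1 had 1.12, -0.34 and 1.39. Neither passed (limma adjusted p = 0.218 and 0.247 for their means of 0.59 and 0.72 over 9 samples). The list's median was 0.22 on day 2, 0.07 on day 4 and 0.13 on day 7. Stat3 itself, named after its values were seen, had a mean of 0.59 over the 3 days (limma adjusted p = 0.346). Its day mean was lowest on day 2, at 0.31, with 0.62 on day 4 and 0.83 on day 7.

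Partners of the individual proteins were measured too. Their counts stand beside 0.0384% of all genes called, 8.98% at an unadjusted p under 0.05 and 50.5% above 0 over the 3 days. No call in lists of this size is thus the usual outcome. For haem and iron handling, 0 of 16 measured genes passed in limma, with 2 at an unadjusted p under 0.05 and a median of 0.01 over the 3 days. By day, 14 of 16 were above 0 on day 2, 3 of 16 on day 4 and 9 of 16 on day 7. Over all genes the shares were 50.8%, 51.0% and 48.4%. Lrp1, a receptor that takes up hemopexin with its haem, was at 0.30 and the haem oxygenase Hmox2 at 0.23. For LPS recognition and Toll-like receptor signalling, 0 of 18 passed, with 2 at an unadjusted p under 0.05 and 10 of 18 above 0 (median 0.06). Rela, an NF-κB subunit, was at -0.27 and Tirap, an adaptor of Tlr4, at -0.24. For regulators and receptors of lipocalin 2 and hepcidin, 0 of 16 passed, with 2 at an unadjusted p under 0.05 and 6 of 16 above 0 (median -0.14). Bmp6, the ligand that drives hepcidin expression, was at -0.30, and Neo1, neogenin, at 0.37. For copper handling, 0 of 12 passed, with 2 at an unadjusted p under 0.05 and 9 of 12 above 0 (median 0.10). The copper pump Atp7a was at 1.30 and the metallothionein Mt2A at 0.65, with day means of 1.27, 0.89 and -0.22 for Mt2A. The limma adjusted p of these 8 genes lay between 0.336 and 0.531.

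The 10 genes varied together only in part. Over the 9 samples, which share arrays and days, Pearson's r between pairs of them lay between -0.78 and 0.93, with a median of 0.32 and 33 of 45 pairs above 0. Against the mean of the other 9 standardised profiles, r was 0.87 for Crp, 0.86 for Hpx and 0.84 for Hp, but 0.25 for Lbp, 0.03 for Cd14 and -0.39 for Apcs. The 5 other genes most like the mean profile over the 9 samples were Cyp2c12, a cytochrome P450 (r = 0.95), Plxnb2, a plexin (0.95), Cps1, the first enzyme of the urea cycle (0.94), Sirt7, a sirtuin deacylase (0.94), and Lad1 (0.93). For single genes the closest was Mtpn for Orm1 (0.96), Rab34 for Lcn2 (0.95), Polr2m for Lbp (0.91), Cc2d2a for Hp (0.93) and Serpina1, the α1-antitrypsin gene, for Hpx (0.96). It was Chrna6 for Cp (0.95), Col3a1 for Crp (0.96), Dcxr for Apcs (0.97), Trappc8 for Hamp (0.90) and Ndufv2 for Cd14 (0.93). With 9 samples and 10411 genes these are descriptions of the profiles only.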

How the data were processed

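RNA of thermally injured and sham-treated rats was compared in 12 samples, and the authors deposited 1 log2 ratio per probe set and sample. Whether a ratio combines more than 1 physical array, and whether samples shared a sham measurement, was not tested. Software, scaling and ratio order were not found in the labels. The deposited ratios were searched for whole-number quotients by continued fractions (tolerance 1e-09, at most 20000). Control probe sets (57) were left out, each array was centred on its median (-0.13 to 0.16 before centring), and probe sets of 1 gene symbol were averaged. Gene IDs matched the GRCr8 table for 12748 of 12783 probe sets with 1 symbol, and no symbol changed. 312 probe sets had several symbols and 2771 had none. limma 3.58.1 in R 4.3.3 (lmFit, eBayes, 1 mean per day, 9 arrays, 6 residual degrees of freedom) was fitted on 10411 genes, with p-values adjusted by Benjamini-Hochberg (threshold 0.05), and tested on simulated data. Intervals are 95%, unadjusted. The number of arrays limits the precision. No more than 0.0126% of ratios were identical between 2 samples. Pearson's r of the ratios between 2 samples of the same day lay between -0.0049 and 0.16, so samples of a day agreed only weakly over the array. Genes and lists were chosen with earlier results of these data known. Named were all 10 genes, the list genes that passed or else the 2 with the smallest p, and those with the most alike profiles. Other list genes, such as Stat3, Lifr and Itgam, were named after their values were seen.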

Additional observations from a re-analysis of the deposited data

Results flagged for a closer look

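Crp lay above 0 in each sample of day 2 and below 0 in each of day 4, which singled it out. The day means were -0.13 on day 4 and 0.27 on day 2, a difference of -0.41 (95% interval -0.80 to -0.02, limma fit of the 9 arrays, unadjusted p = 0.0426 and adjusted p = 0.649 over 10411 genes). Apcs lay below 0 in each sample of day 7 and above 0 in each of day 4, with means of -0.24 on day 7 and 0.33 on day 4, a difference of -0.57 (95% interval -0.95 to -0.20, limma fit of the 9 arrays, unadjusted p = 0.00781 and adjusted p = 0.286). Neither difference passed the adjustment. Crp and Apcs were picked by these same values, and the intervals and p-values make no allowance for that choice. Whatever the sign, day 4 lay wholly below day 2 for 7.03% of all genes, and day 7 wholly below day 4 for 11.1%. That is a looser rule than the opposite signs that singled out Crp and Apcs, for which the share was not counted.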

How the results depend on the processing

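Orm1, Lcn2 and Lbp kept a mean log2 ratio above 0 over the 3 days under the 14 of 20 alternatives that change a mean, at 0.75 to 0.97, 1.02 to 1.56 and 1.05 to 1.34. Of the 10 genes, 1 was called for that mean. A variance trend on brightness and leaving out dim probe sets each called 3 (Orm1, Lcn2 and Lbp), with 34 of 10411 and 35 of 6062 genes called in all, against 4. On day 2 these settings called 1 and 2 of the 10 and 15 genes each, and on day 7 they called 1 of the 10 each and 5 genes each, against 0 in both cases. The variance trend called 1 gene, not one of the 10, for the difference between days, against 0. Leaving out each sample in turn gave between 0 and 1 calls for the mean, and leaving out samples 2 and 3 of day 4 gave 0. That setting and the mean of days 2 and 7 were chosen after seeing the data. The sample number as a replicate block gave 0 calls (Orm1 adjusted p = 0.129). Samples of the same number did not deviate together (r between -0.04 and 0.07 over 9 pairs), so the numbers were not taken as pairs. Of 750 recomputed values, 334 differed from the reported one, since 5 settings alter only the test and leaving out a sample leaves other days as they were. The sign turned in 18 of these 334, none of them called. These were Apcs for the mean of days 2 and 7 (-0.079), Crp for the 3-day mean with array weights (-0.00047) and without samples 2 and 3 of day 4 (-0.013), Hamp on day 7 with array weights (0.015) and without centring (0.041), Hpx on day 4 without samples 2 and 3 (-0.036) and Cd14 on day 4 with quantile normalization (0.016). Leaving out 1 sample turned the sign for Cd14 on day 2 (-0.076 to 0.043) and day 4 (-0.22 to 0.18), Cp on day 4 (-0.18 to 0.051), Crp over the 3 days (-0.020 to 0.029), Hamp on day 7 (-0.24 to 0.20) and over the 3 days (-0.015 to 0.13), Hp on day 4 (-0.13 to 0.014) and Lcn2 on day 4 (-0.053 to 0.72). The cause was not tested.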

Other observations

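Markers of other tissues and cells gave no calls in limma over all genes, where 0.0384% were called for the mean of the 3 days. Above 0 for that mean were 50.5% of all genes. All 5 measured red cell genes were above 0 over the 3 days (median 0.27), among them the globin Hbb at 0.27 and the anion exchanger Slc4a1 at 0.42. On day 4 the red cell median was 0.59 and 2 of the 5 had an unadjusted p under 0.05, beside 8.81% of all genes. Of the 16 measured exocrine pancreas genes, 14 were above 0 over the 3 days (median 0.45), with Pla2g1b, a pancreatic phospholipase, at 1.23 and the elastase Cela1 at -0.46. Of 11 skeletal muscle genes, 5 were above 0 (median -0.05), with Acta1 at -0.99 and Tnnc2 at -0.31. Of 5 adipocyte genes, 3 were above 0 (median 0.04), with Lep at 0.29 and Fabp4 at -0.24. Macrophage markers had 8 of 10 above 0 over the 3 days (median 0.08), with Tyrobp at 0.26 and C1qa at 0.13. Among the hepatocyte markers, Apob was at 0.38 and Hnf4a at 0.40 over the 3 days, each with its lowest day mean on day 4 (-0.42 and -0.26).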
